A study of Mus musculus with 4 samples.

Results

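Cholesterol synthesis and lipid sensing were examined as a set of 36 genes, listed by name for their known function and looked up in the count table of 55359 genes. The list covered 5 genes of the SREBP machinery, 18 sterol synthesis enzymes, 7 genes of LXR signaling, efflux, esterification and oxysterol formation, 5 fatty acid enzymes and the sterol carrier *Stard4*. All 36 were found in the table, and 34 had enough counts to be tested. The study asked what IRF4 does when it is put back into leukemia cells that arose without it. Bulk RNAseq was made from T8, a pB-ALL (B-cell progenitor acute lymphoblastic leukemia) cell line with the genotype Irf4-/-, 24 h after transduction with a retrovirus. EV-RV, the empty vector, codes for GFP alone, and IRF4-RV codes for GFP plus IRF4. There were 2 libraries per group, stated to be biological replicates. T8 stems from a single tumor, was first grown on irradiated ST2 stromal cells with IL-7 and later grew without ST2 cells. The sample titles and tissue labels give T8 while the protocols mention T11, and T8 was taken here. The cells were those still viable at collection.

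Cells make cholesterol from acetyl-CoA through the mevalonate pathway. The SREBP transcription factors switch these enzymes on when SCAP carries them out of the endoplasmic reticulum, and the INSIG proteins hold SCAP back when sterols are plentiful. SREBP-2 mainly drives sterol synthesis and SREBP-1 fatty acid synthesis. The nuclear receptors LXRα and LXRβ answer to oxysterols and raise sterol export through ABCA1 and ABCG1 as well as MYLIP, a ubiquitin ligase that removes lipoprotein receptors. CH25H makes 25-hydroxycholesterol and is known as an interferon-inducible gene in macrophages.

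Library totals were 31686715 and 31230223 counts under EV-RV versus 34771970 and 37817752 under IRF4-RV. *Irf4* was counted 8070 and 7600 times under EV-RV versus 95578 and 90693 under IRF4-RV, with vector and locus not separated under IRF4-RV. EV-RV codes for GFP alone, and the source of its *Irf4* counts in this Irf4-/- line was not tested. These counts are not a measure of functional IRF4. The B lineage marker *Cd79a* had 29068 to 33036 counts per library, while *Rag1* had at most 1 count. Of 9 B lineage markers tested, 1 was higher and 2 were lower with IRF4-RV at an FDR of 0.1. This share of 33.3% was near the 29.7% of all genes tested. The 2 lower markers were *Vpreb1* and *Igll1* of the surrogate light chain, with log2 fold changes of -1.49 and -1.30. Markers of stromal cells summed to 47.6 and 88.9 CPM (counts scaled to the library size after TMM normalization) under EV-RV and to 47.0 and 221.1 CPM under IRF4-RV. They were highest in IRF4-RV replicate 2, and 2 of 8, *Dcn* and *Lum*, were at 0 to 2 counts throughout. Of 13 macrophage markers, *Adgre1*, *Marco* and *Mertk* were at 0 in all libraries. The macrophage markers summed to 1.49 to 1.53 CPM with EV-RV and to 7.55 to 8.59 CPM with IRF4-RV, nearly all of it from *Mrc1*. The part of these markers in the results below was not tested, and values without IRF4-RV replicate 2 are given where that library changes a call. Fewer expressing cells and less RNA per cell cannot be told apart in bulk samples.

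The promoters of these genes are shown first, since SREBP acts on them together with NF-Y, which binds the inverted CCAAT box. The following stretches upstream of the RefSeq transcription start (GRCm38.p6, 5′ to 3′ on the strand of the gene) belong to *Hmgcs1*, an early regulated step, to *Lss*, *Nsdhl* and *Fasn*, which moved in different directions, and to *Insig1*, the feedback gene. Capitals mark the sterol regulatory element TCACNCCAC and the inverted CCAAT box ATTGG on either strand. In *Fasn* a pair of overlapping CCAAT boxes on opposite strands is written as one run of capitals.
Hmgcs1, chr13:119690211-119690350, plus strand: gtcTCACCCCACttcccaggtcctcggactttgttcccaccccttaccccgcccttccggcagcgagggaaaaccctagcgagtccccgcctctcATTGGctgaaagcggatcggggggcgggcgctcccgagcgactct
Lss, chr10:76531465-76531604, plus strand: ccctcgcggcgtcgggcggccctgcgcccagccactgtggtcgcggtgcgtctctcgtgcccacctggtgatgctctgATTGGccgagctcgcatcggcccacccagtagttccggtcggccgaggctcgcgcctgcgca
Nsdhl, chrX:72918381-72918520, plus strand: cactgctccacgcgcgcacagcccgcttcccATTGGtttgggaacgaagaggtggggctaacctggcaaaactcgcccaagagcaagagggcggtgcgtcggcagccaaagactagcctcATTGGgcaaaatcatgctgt
Insig1, chr5:28071162-28071292, plus strand: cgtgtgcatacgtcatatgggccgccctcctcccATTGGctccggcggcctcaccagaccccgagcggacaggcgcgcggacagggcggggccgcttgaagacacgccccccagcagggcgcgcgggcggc
Fasn, chr11:120824548-120824687, minus strand: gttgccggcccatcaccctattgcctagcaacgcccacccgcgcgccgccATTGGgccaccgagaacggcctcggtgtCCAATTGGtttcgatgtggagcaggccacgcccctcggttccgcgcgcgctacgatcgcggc

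Of the 36 members, 29 had an entry among the RefSeq promoters, which run 300 bases across each start. *Fdps*, *Fdft1*, *Sqle*, *Abcg1*, *Scd1*, *Scd2* and *Stard4* had none. The inverted CCAAT box was found in 22 of the 29 members (75.9%) and in 14 of 15 sterol synthesis enzymes (93.3%), all but *Acat2*. Among all 27025 genes of the table it was found in 41.1%, and among the 9233 genes also tested for expression in 43.2%. The GC box GGGCGG, which is bound by Sp1, was present in 79.3% of the members and in 14 of the 15 synthesis enzymes (93.3%), against 68.7% of the genes tested for expression and 38.2% of all genes. The sterol regulatory element in the spelling given above was found in *Hmgcs1* alone, 137 bases before the start, and in 1.36% of the genes tested for expression. Elements that IRF factors bind were searched as well. The core of the interferon-stimulated response element, GAAANNGAA, was present in *Ebp* alone (3.45% of the members), against 8.77% of the genes tested for expression. The core of the Ets-IRF composite element, GGAANNGAA, was present in *Pmvk* and *Dhcr7* (6.9%), against 8.69%. With 29 members, these shares do not show a lack of either element. An exact direct repeat of AGGTCA with a spacer of 4 bases, the LXR element, was found in 0 of 29 members and in 0.0148% of all genes. This spelling is too rare for 0 of 29 to be informative, and *Abcg1* had no promoter entry. All motifs were searched on both strands, and a match describes letters in this window, not binding.

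**Figure D1:**
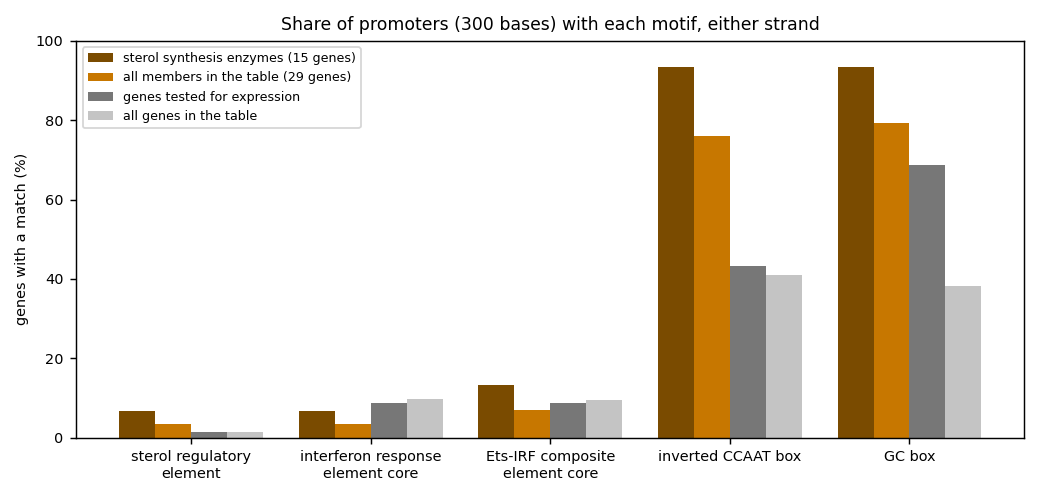
Share of genes (y axis, %) whose 300-base promoter holds each motif (x axis) on either strand, for the 15 sterol synthesis enzymes and 29 members in the promoter table, the genes tested for expression and all genes in the table. The inverted CCAAT box and the GC box are each found in 93.3% of the synthesis enzymes, against 43.2% and 68.7% of the genes tested for expression.

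The levels of the members in T8 cells spanned more than 3 orders of magnitude per length. In TPM, which allows levels of different genes to be set side by side, *Scd2*, a stearoyl-CoA desaturase, was highest with 344.9 ± 27.3 TPM (SD, n = 2) in the EV-RV libraries. *Acly*, which makes cytosolic acetyl-CoA, followed with 227.7 TPM, and *Idi1* and *Scd1* came next with 186.5 and 185.7 TPM, closer together than their spread. A level of at least 100 TPM was reached by 8 members, with *Fasn*, *Srebf2*, *Cyp51* and *Insig1* as the other four. With the length of the longest transcript the number was 6, since *Cyp51* and *Insig1* were then at 97.7 TPM each. *Srebf2* at 119.0 TPM was above *Srebf1* at 47.7 TPM. Among the oxysterol receptors, *Nr1h2* (LXRβ) stood at 42.0 TPM and *Nr1h3* (LXRα) at 0.205 TPM. The exporters were low as well, *Abcg1* at 5.66 TPM and *Abca1* at 0.0033 TPM. All 18 synthesis enzymes were detected, and transcripts of LXRβ exceeded those of LXRα.

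**Figure D2:**
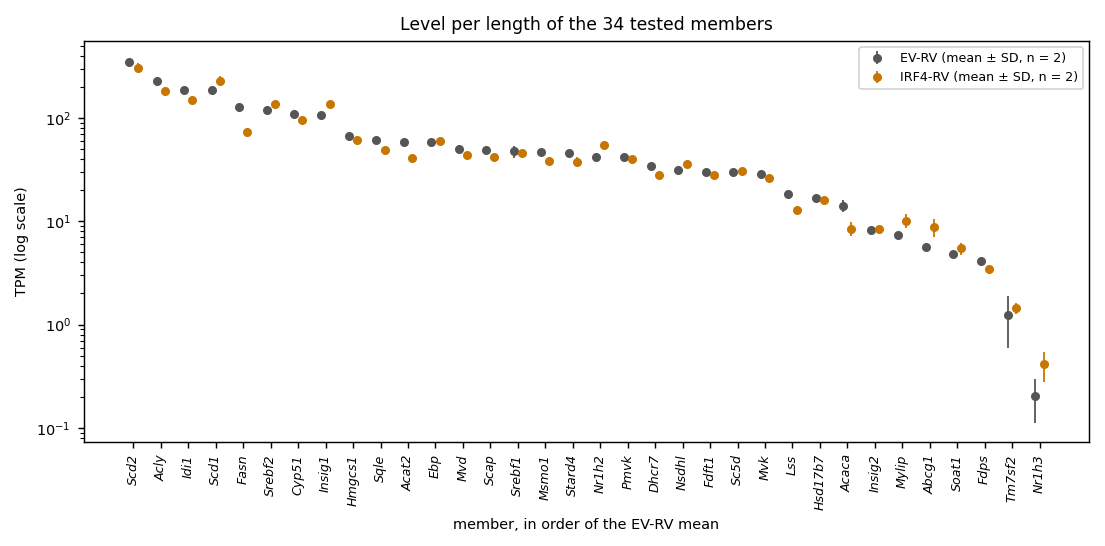
Mean TPM ± SD (y axis, log scale, n = 2 per group) of the 34 tested members, ordered by their EV-RV mean (x axis). *Scd2* is highest at 344.9 TPM and *Nr1h3* lowest at 0.205 TPM with EV-RV. TPM were not scaled with TMM factors, so the order is shown, not the comparison of groups.

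The next question was how the set responded to IRF4. With IRF4-RV, 12 of the 34 tested members were called at an FDR of 0.1, 7 higher and 5 lower. Among all 14637 genes tested, 29.7% were called, 16.0% higher and 13.7% lower, so the share of members called was near the background. No called member changed by more than 0.75 on the log2 scale, and the median over the 34 members was 0.0053, beside 0.0073 over all genes. The CPM of the groups did not overlap for 25 of the 34 members, against 61.3% of all genes. Both IRF4-RV libraries were above both EV-RV libraries for 12 members (31.3% of all genes) and below for 13 (29.9% of all genes). The split depended on the scaling, since 53.8% of all called genes were higher with TMM and 37.8% with library size only, which gave 6 higher and 11 lower members. All 5 tested genes of LXR signaling, efflux and esterification had positive log2 fold changes with a median of 0.56, while the 18 synthesis enzymes had a median of -0.04, with 8 positive and 10 negative values. With library size only, these 5 values stayed positive and the median of the synthesis enzymes was -0.13. In a separate list of LXR targets and partners, the 7 tested genes had a median of -0.135, with 3 positive and 4 negative values. The medians were not tested.

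**Figure D3:**
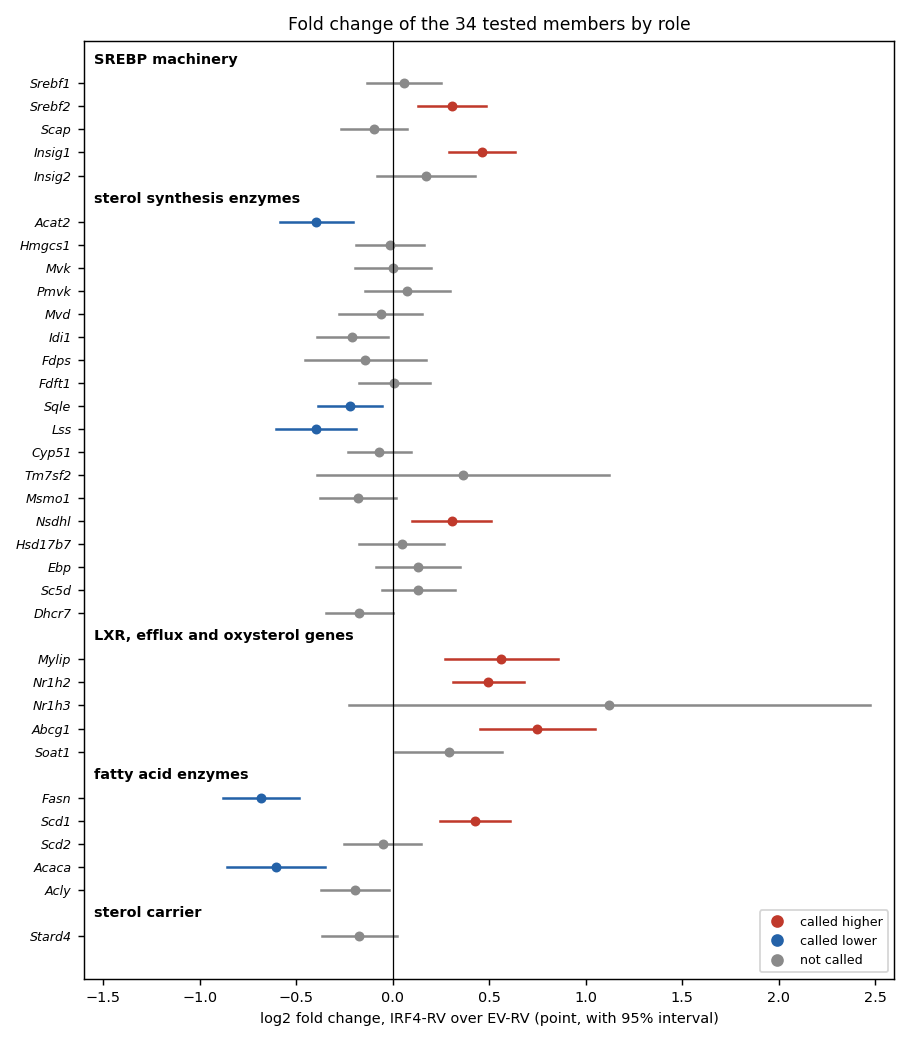
Log2 fold change, IRF4-RV over EV-RV (x axis), with its 95% interval from the edgeR fit for each of the 34 tested members, grouped by role (y axis). The called genes are colored, and the LXR and efflux genes lie to the right of 0 while most synthesis enzymes lie around it.

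In the SREBP machinery, the SREBP-2 gene and 1 INSIG gene rose, and the genes for SREBP-1, SCAP and INSIG2 were not called. *Insig1*, whose protein retains SCAP and which is itself an SREBP target, lies on chromosome 5 from 28071363 to 28078662 (ENSMUSG00000045294). It was counted 4812 and 4747 times under EV-RV versus 7059 and 7200 under IRF4-RV. Both IRF4-RV libraries were above both EV-RV libraries, with 203.1 ± 7.54 against 147.4 ± 4.48 CPM (SD, n = 2). *Insig1* rose 1.38-fold (log2 fold change 0.46, SE 0.074, edgeR adjusted p = 0.00372). *Srebf2*, on chromosome 15 from 82147181 to 82205379 (ENSMUSG00000022463), had 13078 and 11688 counts under EV-RV versus 16582 and 16509 under IRF4-RV. It rose 1.24-fold (log2 fold change 0.31, SE 0.0766, edgeR adjusted p = 0.0252), without overlap of the groups. The call depended on IRF4-RV replicate 1, without which the log2 fold change was 0.23 (edgeR adjusted p = 0.258).

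*Srebf1* showed no comparable shift. Its 4222 and 3554 counts under EV-RV versus 4154 and 4603 under IRF4-RV overlapped after scaling, and the fold change of 1.04, which turned below 1 with library size only, had a 95% interval of 0.91 to 1.19. *Scap*, the escort of both SREBPs, was at 161.3 ± 3.68 CPM with EV-RV and 150.8 ± 6.46 CPM with IRF4-RV (SD, n = 2), a fold of 0.935 with an interval of 0.829 to 1.05. *Insig2*, the INSIG gene that is less dependent on SREBP, was at 12.7 ± 0.68 and 14.3 ± 0.62 CPM (SD, n = 2), a fold of 1.13 with an interval of 0.946 to 1.34. For these 3 genes a change of the size seen for *Insig1* lay outside the interval.

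The synthesis enzymes were taken in the order of the pathway. From acetyl-CoA to farnesyl pyrophosphate, *Acat2* alone was called. *Acat2*, a thiolase that joins acetyl-CoA units, lies on the minus strand of chromosome 17 from 12942890 to 12960747 (ENSMUSG00000023832). It had 2164 and 2191 counts under EV-RV versus 1707 and 1881 under IRF4-RV, with both IRF4-RV libraries lower after scaling. *Acat2* fell to 0.76-fold (log2 fold change -0.40, SE 0.082, edgeR adjusted p = 0.0114). Of its 50-base words, 39.1% also occur in transcripts of other genes, with the most matches in the neighboring paralog *Acat3*, so reads may be split. *Acat3* itself had 285 and 296 counts under EV-RV versus 215 and 255 under IRF4-RV, in the same direction.

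*Hmgcs1*, the HMG-CoA synthase, was counted 4749 and 4181 times under EV-RV versus 4693 and 4872 under IRF4-RV. The groups overlapped after scaling, and its fold change of 0.991 had an interval of 0.876 to 1.12. The kinases *Mvk* and *Pmvk* and the decarboxylase *Mvd*, which turn mevalonate into isopentenyl pyrophosphate, had folds of 1.002, 1.05 and 0.957, all with overlapping groups. *Mvk* was among the most even members, with 33.9 and 34.4 CPM in the EV-RV libraries and 33.9 and 34.5 CPM in the IRF4-RV libraries. *Idi1*, the isomerase that follows, had 9216 and 9734 counts under EV-RV versus 8482 and 9303 under IRF4-RV. It was lower in both IRF4-RV libraries after scaling but just missed the threshold (log2 fold change -0.21, SE 0.0796, edgeR adjusted p = 0.104). DESeq2 gave an adjusted p of 0.0882. Of the 50-base words of *Idi1*, 25.3% also occur in other genes, with the most matches in *Gm13502*, which had 1808 to 2085 counts. *Fdps*, the farnesyl pyrophosphate synthase, had only 226 to 269 counts and a fold of 0.906 with an interval of 0.73 to 1.13. On the same strand, 1124 of its exonic bases overlap *Gm43738*, a gene with 0 counts in all libraries, so its level is uncertain.

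At the squalene steps a pair of adjacent enzymes fell. *Fdft1*, which makes squalene, stayed at 57.0 ± 1.32 CPM with EV-RV and 57.3 ± 0.35 CPM with IRF4-RV (SD, n = 2), and 774 of its exonic bases lie opposite *Ctsb*. *Sqle*, the squalene epoxidase, a rate-controlling step, had 5014 and 4881 counts under EV-RV versus 4358 and 4840 under IRF4-RV. In CPM, 150.3 and 154.8 stood against 128.7 and 132.9, so the groups did not overlap. *Sqle* fell to 0.858-fold (log2 fold change -0.22, SE 0.0723, edgeR adjusted p = 0.0644), the call nearest to the threshold. It was no longer called without EV-RV replicate 2, IRF4-RV replicate 1 or IRF4-RV replicate 2, with adjusted p-values of 0.168, 0.293 and 0.267, or when all genes with at least 1 count were tested (0.108). *Lss*, the cyclase that closes the ring to lanosterol, lies on chromosome 10 from 76531588 to 76557138 (ENSMUSG00000033105). It was counted 2799 and 2969 times under EV-RV versus 2219 and 2535 under IRF4-RV. *Lss* fell to 0.759-fold (log2 fold change -0.40, SE 0.0886, edgeR adjusted p = 0.0156), and it was called with each library left out in turn.

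After lanosterol, *Nsdhl* was the one enzyme called, and it rose. *Nsdhl*, an oxidoreductase in the removal of the C4 methyl groups, lies on chromosome X from 72918557 to 72958514 (ENSMUSG00000031349). It had 1337 and 1271 counts under EV-RV versus 1604 and 1889 under IRF4-RV, and 49.6 ± 3.20 CPM stood above 40.2 ± 0.17 CPM (SD, n = 2). *Nsdhl* rose 1.24-fold (log2 fold change 0.30, SE 0.0882, edgeR adjusted p = 0.0432). The call was lost without EV-RV replicate 1 (adjusted p = 0.113), without IRF4-RV replicate 2 (adjusted p = 0.294) and with library size only (adjusted p = 0.121). *Msmo1* and *Hsd17b7*, which act at the same demethylation, had log2 fold changes of -0.18 and 0.05 and were not called. The demethylase *Cyp51* had 211.8 and 217.4 CPM under EV-RV versus 201.3 and 207.7 CPM under IRF4-RV, a fold of 0.953 with an interval of 0.851 to 1.07. *Ebp*, the sterol isomerase, and *Sc5d*, the desaturase, had log2 fold changes of 0.13 each. *Dhcr7*, which completes the route through 7-dehydrocholesterol, was lower in both IRF4-RV libraries (fold 0.886, edgeR adjusted p = 0.143).

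*Tm7sf2*, a C14 reductase whose reaction other proteins can also carry out, was low and uneven. On the same strand, 532 of its exonic bases overlap *Vps51*, which had 1163 to 1383 counts, so the level of *Tm7sf2* is uncertain. *Tm7sf2* had 107 and 50 counts in the EV-RV libraries and 112 and 105 in the IRF4-RV libraries. Its log2 fold change of 0.36 had an interval of -0.39 to 1.12, and it was -0.05 without EV-RV replicate 2. Among the 18 synthesis enzymes, 1 was thus higher, 3 were lower and 14 were not called. The share called was 22.2%, against 29.7% of all genes tested. Their summed levels were 1511.4 and 1590.7 CPM under EV-RV versus 1421.4 and 1455.6 CPM under IRF4-RV. Such a sum is weighted by the enzymes with the most counts and was not tested. *Idi1*, which was not called, had the highest CPM among them, with means of 292.5 under EV-RV and 253 under IRF4-RV.

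Among the genes of sterol sensing, export and storage, 3 of the 5 tested were called (60%, against 29.7% of all genes tested), and these rose. *Abcg1*, which exports cholesterol to lipoproteins, lies on chromosome 17 from 31057675 to 31117988 (ENSMUSG00000024030). It was counted 607 and 589 times under EV-RV versus 1177 and 992 under IRF4-RV. *Abcg1* had the largest change among the called members, a 1.68-fold rise (log2 fold change 0.75, SE 0.129, edgeR adjusted p = 0.00509). *Mylip*, the ligase that marks lipoprotein receptors for degradation, lies on chromosome 13 from 45389742 to 45412022 (ENSMUSG00000038175). It had 362 and 332 counts under EV-RV versus 585 and 521 under IRF4-RV. *Mylip* rose 1.48-fold (log2 fold change 0.56, SE 0.126, edgeR adjusted p = 0.0162). Both genes are known LXR targets, and for both the groups did not overlap.

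*Nr1h2*, the LXRβ gene, lies on the minus strand of chromosome 7 from 44549616 to 44553951 (ENSMUSG00000060601). It had 2151 and 1929 counts under EV-RV versus 2944 and 3287 under IRF4-RV. *Nr1h2* rose 1.41-fold (log2 fold change 0.50, SE 0.0785, edgeR adjusted p = 0.00352). *Abcg1*, *Mylip* and *Nr1h2* were called with each library left out in turn. Without IRF4-RV replicate 2, the library with the highest stromal markers, the log2 fold changes were 0.92, 0.70 and 0.47. *Abcg1* and *Mylip* were higher in IRF4-RV replicate 1 than in replicate 2.

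*Nr1h3*, the LXRα gene, was at the lower limit of testing with 5 and 10 counts under EV-RV versus 13 and 23 under IRF4-RV. Its log2 fold change of 1.12 had an interval of -0.23 to 2.47, too wide for a direction. *Abca1* was not tested, with 0 and 1 counts under EV-RV versus 4 and 3 under IRF4-RV. The ratio of its summed levels was 6.46 with an exact interval of 0.83 to 291.3, which covers counting error only. *Soat1*, which esterifies cholesterol for storage, had 656 and 721 counts under EV-RV versus 948 and 874 under IRF4-RV. It missed the threshold (log2 fold change 0.29, SE 0.12, edgeR adjusted p = 0.131) but passed it without IRF4-RV replicate 2 (0.40, adjusted p = 0.043).

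*Ch25h* was not detected. It had 0 counts in all 4 libraries, which allows up to 3 counts per library, or 0.0824 to 0.0952 CPM. In the same cells, all 10 genes of an interferon-stimulated list rose, with log2 fold changes from 1.21 to 7.03. Among all genes tested, 16.0% were called higher. *Rsad2*, an antiviral enzyme, was counted 7 and 5 times under EV-RV versus 870 and 862 under IRF4-RV. *Usp18*, a negative regulator of interferon signaling, was counted 49 and 51 times under EV-RV versus 2277 and 3023 under IRF4-RV. *Ifit1* had 3 and 0 counts under EV-RV versus 92 and 221 under IRF4-RV. No *Ch25h* signal was thus detectable at this depth in libraries in which the interferon-stimulated genes rose.

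The fatty acid enzymes split. *Fasn*, the fatty acid synthase, lies on the minus strand of chromosome 11 from 120805846 to 120824547 (ENSMUSG00000025153). It was counted 21379 and 18825 times under EV-RV versus 13798 and 13250 under IRF4-RV. *Fasn* fell to 0.623-fold (log2 fold change -0.68, SE 0.0843, edgeR adjusted p = 0.00112), the smallest p among the members. *Acaca*, the acetyl-CoA carboxylase that feeds it with malonyl-CoA, lies on chromosome 11 from 84129672 to 84401651 (ENSMUSG00000020532). It had 3767 and 3178 counts under EV-RV versus 2599 and 2317 under IRF4-RV. *Acaca* fell to 0.657-fold (log2 fold change -0.61, SE 0.109, edgeR adjusted p = 0.00616). Of its 50-base words, 30.4% also occur in other genes, with the most matches in *Gm5182*. *Gm5182* had 455 and 344 counts under EV-RV versus 276 and 248 under IRF4-RV.

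*Scd1*, which introduces the double bond into stearoyl-CoA, rose instead. It lies on the minus strand of chromosome 19 from 44394455 to 44407879 (ENSMUSG00000037071) and had 13463 and 12863 counts under EV-RV versus 19424 and 18801 under IRF4-RV. *Scd1* rose 1.34-fold (log2 fold change 0.43, SE 0.0786, edgeR adjusted p = 0.00698). *Scd2*, its paralog and the member with the highest level, had 857.4 and 823.8 CPM under EV-RV versus 865.7 and 756.2 CPM under IRF4-RV, so the groups overlapped. The fold of *Scd2* was 0.965 with an interval of 0.84 to 1.11. Of the 50-base words of *Scd1*, 4.56% also occur in other genes, with the most matches in *Scd2*. *Acly*, upstream of both routes, was lower in both IRF4-RV libraries but was not called (fold 0.873, edgeR adjusted p = 0.113). *Stard4*, which carries sterols between membranes, had 112.8 and 117.6 CPM under EV-RV versus 107.7 and 96.7 CPM under IRF4-RV, and was not called (fold 0.887, interval 0.776 to 1.01).

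**Figure D4:**
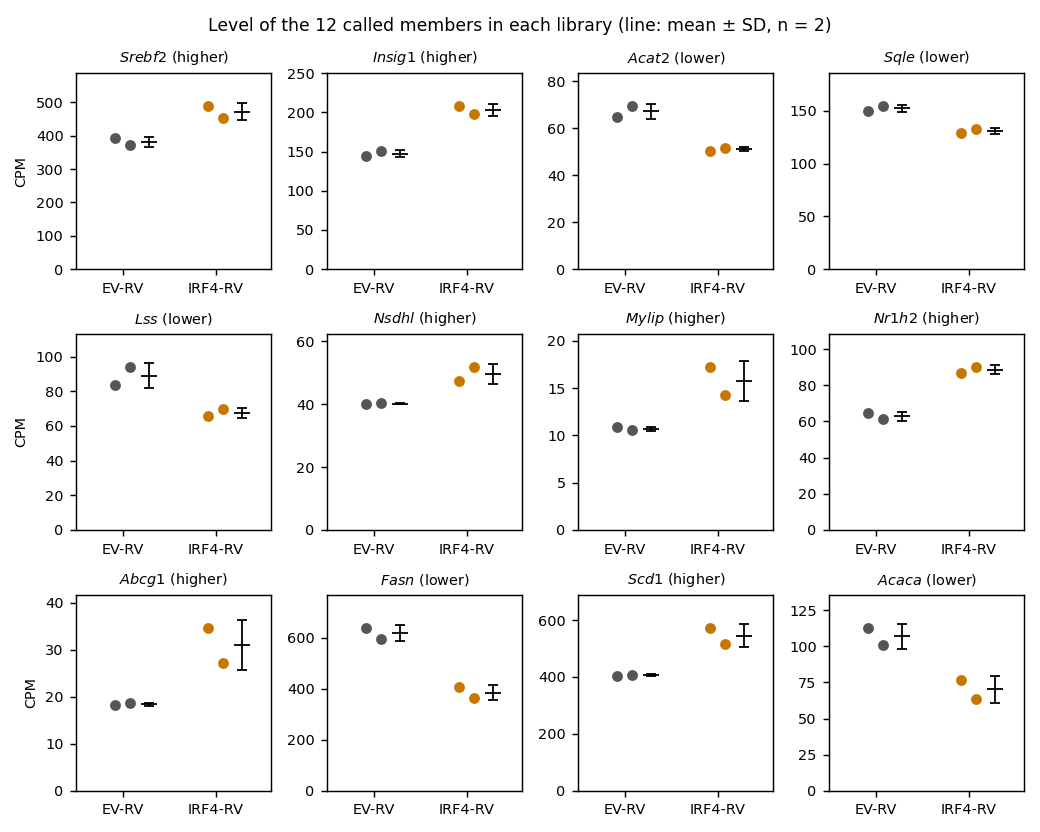
CPM (y axes, from 0) of the 12 called members in each library of EV-RV and IRF4-RV (points), with the mean ± SD beside them (n = 2). In all 12 panels the points of the groups do not overlap, and *Abcg1*, *Fasn* and *Acaca* are the furthest apart in fold. The 12 were chosen by their calls in these same libraries, and 61.3% of all genes tested do not overlap, so this adds no support to the calls.

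The 22 members that were not called included 9 with overlapping groups. Apart from *Nr1h3* and *Tm7sf2*, the 95% intervals of the remaining 20 lay between 0.73-fold and 1.48-fold, so a 2-fold change was outside each of them. Of the 12 called members, 9 were called with each library left out in turn, *Srebf2*, *Nsdhl* and *Sqle* being the exceptions. Without IRF4-RV replicate 2, 10 of the 12 remained called, and *Soat1* joined them.

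Other genes of these pathways, compiled as lists beside the members, were read from the same fit. The share of tested genes called is given for each list, against 29.7% of all genes tested. Of 14 genes of sterol synthesis and SREBP processing, 2 rose and 1 fell (21.4% called). Both that rose act in the sterol-dependent turnover machinery of the endoplasmic reticulum. *Erlin1*, a subunit of an erlin complex that restrains SREBP, was counted 775 and 863 times under EV-RV versus 1786 and 1894 under IRF4-RV (log2 fold change 1.05, edgeR adjusted p = 0.000356). *Rnf139*, a sterol-sensing ubiquitin ligase, was counted 839 and 857 times under EV-RV versus 1443 and 1612 under IRF4-RV (0.73, adjusted p = 0.00113).

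Among 15 SREBP targets in uptake and fatty acid synthesis, 14 were tested, of which 2 rose and 6 fell (57.1% called). *Gpam*, which starts glycerolipid synthesis, fell by 1.11 on the log2 scale, from 2083 and 1819 counts to 950 and 1011. *Elovl6*, the elongase of palmitate, fell by 1.02, from 7171 and 6160 counts to 3578 and 3517. *Slc25a1*, the citrate carrier, fell by 0.53. *Acss2*, which makes acetyl-CoA from acetate, rose by 1.31, from 275 and 246 counts to 671 and 731, and *Elovl5*, an elongase of polyunsaturated acids, rose by 0.24. The edgeR adjusted p was 0.000126 for *Gpam*, 0.000165 for *Elovl6*, 0.00159 for *Slc25a1*, 0.000138 for *Acss2* and 0.0741 for *Elovl5*. *Elovl5* was called in 1 of 4 fits without 1 library (adjusted p = 0.169 without IRF4-RV replicate 2) and was not called with library size only (0.193).

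Of 12 genes in the isoprenoid branch, which leaves the pathway near farnesyl pyrophosphate, 1 was higher and 2 were lower (25% called). *Pdss1*, for the side chain of ubiquinone, fell by 0.53 on the log2 scale (edgeR adjusted p = 0.029), and *Nus1*, for dolichol, by 0.33 (adjusted p = 0.0171). *Zmpste24*, a protease for prenylated proteins, rose by 0.23 (adjusted p = 0.0858). The *Zmpste24* call was lost with DESeq2 (adjusted p = 0.116), with library size only (0.229) and in 3 of 4 fits without 1 library. Without IRF4-RV replicate 2 the adjusted p was 0.21 for *Zmpste24* and 0.147 for *Nus1*, and without EV-RV replicate 2 it was 0.117 for *Pdss1*. Of 13 LXR targets and partners, 7 were tested, of which 2 rose and 2 fell (57.1% called). The 7 had a median log2 fold change of -0.135, with 3 positive and 4 negative values. *Pltp*, a phospholipid transfer protein and LXR target, rose from 193 and 174 counts to 340 and 379 (0.85, adjusted p = 0.00258), and *Lpcat3*, another LXR target, rose by 0.26 (adjusted p = 0.0733). The LXR partner *Rxrb* fell by 0.22 (adjusted p = 0.0661). Without IRF4-RV replicate 2 the adjusted p was 0.133 for *Lpcat3* and 0.307 for *Rxrb*, and over the 4 fits that leave out 1 library *Lpcat3* was called in 1 and *Rxrb* in 0. *Abcg5*, a further LXR target, had 0 counts in all libraries.

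Of 20 genes of oxysterol metabolism, esterification and sterol transport, 11 were tested, 5 of which rose and 1 fell (54.5% called). *Npc1*, which releases cholesterol from lysosomes, was counted 574 and 517 times under EV-RV versus 985 and 945 under IRF4-RV (log2 fold change 0.71, edgeR adjusted p = 0.00229). The sterol carriers *Stard3* and *Stard5* rose by 0.55 (adjusted p = 0.00508) and 0.48 (adjusted p = 0.0517). *Stard3* was called with each library left out, whereas *Stard5* was not called in 3 of 4 such fits (0.31, adjusted p = 0.292 without IRF4-RV replicate 2), with DESeq2 (0.118) or with library size only (0.103). *Scarb1*, a receptor that takes up cholesterol esters, fell by 0.42 (adjusted p = 0.00725). The enzymes that make or break down oxysterols, *Cyp7b1*, *Cyp27a1*, *Cyp46a1* and *Hsd3b7*, had at most 3 counts in any library, as *Ch25h* had 0.

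**Figure D5:**
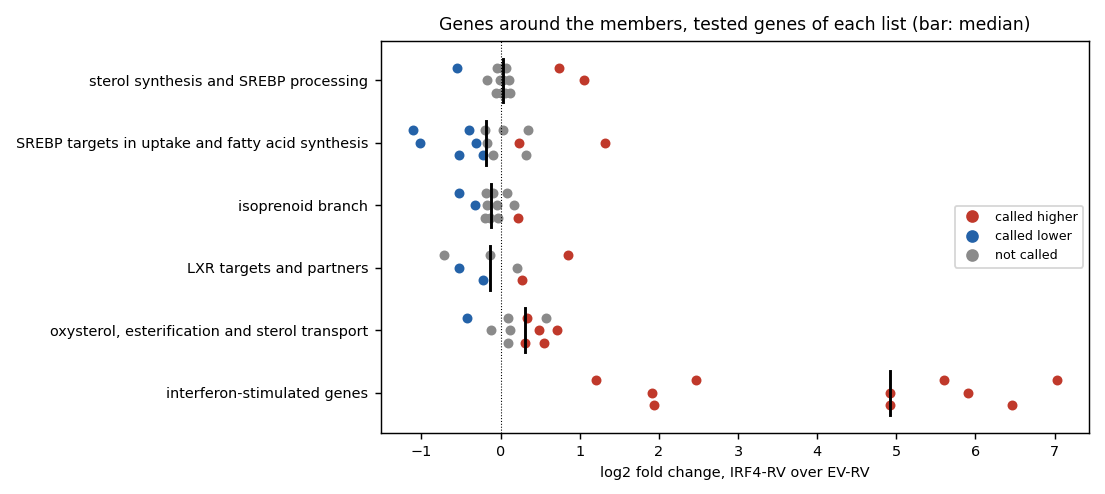
Log2 fold change, IRF4-RV over EV-RV (x axis), of each tested gene in the lists beside the members (y axis), colored by its call, with the list median as a bar. All 10 interferon-stimulated genes lie between 1.21 and 7.03, while the genes of the lipid lists lie between -1.11 and 1.31.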

How the data were processed

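RNAseq reads were processed by the authors, who per the labels used STAR (2.4.0j) on GRCm38 and featureCounts. They deposited raw counts per gene, whole numbers without normalization. Settings for strand and multiple alignments are not given in the sources used here. Of 55359 identifiers, 52083 matched GENCODE M21, which gave symbols, coordinates and exon lengths for TPM.

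Here, genes passing filterByExpr were tested in R 4.3.3 with edgeR 4.0.16 (TMM factors, quasi-likelihood F test, Benjamini-Hochberg adjustment over all genes, FDR 0.1, the cutoff of the study). Chi-square tests between replicates gave 14.1 (EV-RV) and 13.1 (IRF4-RV) per degree of freedom, above sampling noise, so each library was kept as a sample. The floor of 3 counts and all exact intervals cover counting error only. Words of 50 bases shared with other genes came from GENCODE transcripts, and promoters from RefSeq. DESeq2 1.42.0, other scalings, filters and cutoffs, a replicate block and leaving out each library were alternatives.

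Members and lists were chosen with earlier results of these data known. All members and *Irf4* are named, and of each other list up to 3 called genes each way if their mean reached 50 normalized counts. *Abcg5*, the oxysterol enzymes, single cell type markers above 0 and genes that share sequence with members were named after their values were seen, and 2 genes that this rule selects are not reported here.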

Additional observations from a re-analysis of the deposited data

How the results depend on the processing

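Low counts limited what could be shown for *Nr1h3*, *Abca1*, *Ch25h* and *Tm7sf2*, and p-values rest on the spread of 4 libraries. The cause of the shifts below was not tested. All 12 called members were also called with DESeq2, which added *Idi1* and *Acly*. Library size only lowered all member values, ended the call of *Nsdhl*, gave 11 lower members and a median of the synthesis enzymes of -0.13, and turned *Srebf1* (-0.035), *Mvk* (-0.088), *Pmvk* (-0.014), *Fdft1* (-0.083) and *Hsd17b7* (-0.043) negative. *Mvk* was also negative with DESeq2's size factors (-0.0033) and, like *Fdft1* (-0.0016), with at least 10 counts in every library (-0.0070), where 6 interferon-stimulated genes were left to be called since 4 were no longer tested.

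The number of all genes called moved as well, from 4349 of 14637 in the main fit to 4610 with library size only. DESeq2 called 3596 of 14765 genes. With an FDR of 0.05, 3347 of the 14637 genes were called, among them 5 uptake and fatty acid genes and 2 LXR targets. With the replicate number as a block, 6394 of the 14637 genes were called. The block gave 18 called members, 10 of them lower, with 7 synthesis enzymes and 5 isoprenoid genes. Same-numbered libraries correlated with r = 0.26 in their deviations, but with 2 pairs the numbers do not show a pairing.

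With each library left out in turn, 2 (without IRF4-RV replicate 2) to 6 synthesis enzymes were called, 1 (without IRF4-RV replicate 1) to 2 genes of the SREBP machinery, 5 (without IRF4-RV replicate 1) to 7 uptake and fatty acid genes, 1 (without IRF4-RV replicate 2) to 4 isoprenoid genes and 2 (without EV-RV replicate 1 and without either IRF4-RV library) to 3 LXR targets. Log2 fold changes that crossed 0 were those of *Srebf1* (-0.021 to 0.13), *Hmgcs1* (-0.062 to 0.030), *Mvk* (-0.017 to 0.015), *Fdft1* (-0.025 to 0.034), *Tm7sf2* (-0.050 to 0.95), *Hsd17b7* (-0.051 to 0.14) and *Scd2* (-0.17 to 0.047), none of them called with all libraries. The 12 called members kept their direction under all these alternatives.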
